A study of Bos taurus with 8 samples.

Results

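The miRNAs described here are the 72 on a bovine miRNA array whose name carries a number of 2500 or above, out of 763 bovine miRNAs on the array. They were chosen by the number in their name, whatever the letter or arm, and the group was put forward with earlier results of these data known; all 72 are also rows of the deposited value table. Their numbers run from miR-2881 to miR-6536, and they are read by 148 of the 1657 miRNA probes: 69 of them by 2 probes, 2 by 3 and 1 by 4. At the boundary, the highest number left out was miR-2489, detected on no array, and the lowest included was miR-2881, detected on all 8.

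Mammary tissue came from 8 healthy, non-pregnant heifers, 4 of the dairy breed Holstein-Friesian (HF) and 4 of the beef breed Limousin (LIM), with no treatment and no genetic alteration. The sample characteristics give an age of 20 months and the protocol an age of 2 years. Total RNA of each animal went onto an Agilent array of its own, and the 4 arrays of a breed are biological replicates per the labels. The comparison, stated as Limousin minus Holstein-Friesian throughout, asks how the miRNA content of the gland differs between a dairy and a beef breed.

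MicroRNAs are short RNAs that guide Argonaute proteins to partly complementary sites in messenger RNAs and lower their translation or stability. Most are cut from a hairpin, either arm of which can give a mature miRNA. Registry numbers follow the order in which miRNAs were deposited, and orthologues in different species share a number, so that the low numbers hold the families conserved among animals and the high ones hold miRNAs found later, many of them by sequencing. Some late entries lie opposite a long-known miRNA, on the other strand of the same hairpin, and some lie inside protein-coding genes. For most of these 72 miRNAs no role in the mammary gland is established, so their genomic position is given in its place.

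The array reads a miRNA through a DNA probe that pairs with the 3′ end of the miRNA. Agilent shortens probes of GC-rich miRNAs to even out their melting temperatures, so that length and GC content go together. The probes of the 13 members that passed the test between the breeds are shown. So are those of the member with the smallest difference (miR-3431) and of the brightest member (miR-4286). Probe composition is set beside the breed differences below, and its part in them was not tested. The probes are printed 5′ to 3′ as deposited, with the longest uninterrupted run of G and C in capitals.
miR-2881: caCCCGCCCCC
miR-2884_v15.0: ccatccaatCGGtagt
miR-2885: CGCCCCGGC
miR-2887: cgcaCCGGaccc
miR-2888: ccaaCCCCCCC
miR-2892: GGGGGGtcgcg
miR-2893: CCCCGGGCattc
miR-2898: tCCCCGGCatctcc
miR-2902: CCCacctccagg
miR-2904: gaGGCCaaccgagg
miR-3141: cctcctccaCCCG
miR-6525: ctcactCCtgctttcc
miR-6528: cctccttCCCtcttc
miR-3431: acatccacaaGGCtga
miR-4286: ggtaccaggagtGGG
The 13 probes that passed held between 50% and 100% G and C over 9 to 16 bases. The probe of miR-2885 contains no A or T at all, and those of miR-2881, miR-2888, miR-2892 and miR-2893 hold a single run of G and C over most of their length. In every member with several probes, as in all 763 miRNAs of the array, the probes begin at the same base and differ in how far they extend. Of the 21 members tested between the breeds, miR-3154 shared the longest stretch with a probe of another miRNA, 11 of its 15 bases with miR-2389, and the probe of miR-2881 shared 9 of its 11 bases with miR-1777b.

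In the array's annotation (UMD 3.1), 63 members map to 1 position, 8 to several and 1, miR-3602, to none. RefSeq (ARS-UCD2.0) lists a miRNA gene under the number or as a synonym for 67 members. For miR-2957 it is MIR148C, and some numbers are split into A and B genes or copies. No such gene is listed for miR-2884_v15.0, miR-2904, miR-3114_v15.0, miR-3602 and miR-6533. For 53 members, the RefSeq miRNA gene overlaps another RefSeq gene that is not a miRNA, without regard to strand. A member is said here to lie in a gene on the basis of that overlap in ARS-UCD2.0. The printed positions are those of the probes in UMD 3.1. The RefSeq list used gives no exons, so exon or intron is not stated. Of the members that passed, miR-2881 lies at chr7:13754330-13754339, miR-2884_v15.0 at chr12:45758260-45758274, miR-2892 at chr12:81323162-81323171 and miR-3141 at chr12:73398861-73398872. The probe of miR-2898 is placed at chr8:74354032-74354044, that of miR-2902 at chr3:117980185-117980195 and that of miR-6528 at chr15:74543922-74543935. Others sit in the spans of named genes. miR-2885 (chr29:40742056-40742063) lies in SYT7, which encodes a calcium sensor of vesicle fusion. miR-2893 (chr17:73346090-73346100) lies in CABIN1, which encodes a calcineurin-binding protein, and miR-6525 (chr4:114451876-114451890) lies in FASTK. miR-3431 (chrX:34662687-34662701) lies in GABRE, which encodes a subunit of the GABA-A receptor. The probes of miR-2887, miR-2888 and miR-4286 map to 2 positions each and that of miR-2904 to 3, and no position is given for them. The RefSeq genes of miR-2888 and miR-4286 overlap GRIP2, a scaffold gene, and STARD3, which encodes a cholesterol-binding protein of late endosomes.

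The tissue, depth and layout of the arrays were checked over all miRNAs. Between 28.6% and 35.5% of the 45780 miRNA spots of an array were well above background, 0 were saturated, and 243 to 267 miRNAs were detected on Holstein-Friesian against 272 to 297 on Limousin arrays. The 75th percentile of the signal over the 429 probes detected on all arrays was 557 to 939 in Holstein-Friesian and 943 to 1579 in Limousin, so the Limousin arrays were the brighter ones before scaling. All 6 epithelial miRNAs on the marker list (the miR-200 family with miR-141, miR-429 and miR-205) were detected on all arrays, with summed log2 signals of 14.12 to 14.29 in Holstein-Friesian and 14.20 to 14.33 in Limousin. So were all 5 stromal markers (13.14 to 13.26 and 13.19 to 13.42), both arms of the endothelial miR-126 (11.42 to 11.78 and 11.63 to 11.97), 1 of 3 erythroid markers (5.41 to 7.22 and 5.41 to 5.90; miR-144 and miR-486 on none) and 4 of 5 leukocyte markers (10.00 to 10.59 and 10.53 to 10.89; miR-142-3p on none). Neither liver miR-122 nor any of the 3 neural miRNAs was detected. Of 4 skeletal muscle markers 0 were on all arrays. Among them, miR-1, miR-133a and miR-133b were on some arrays and miR-206 on none (5.53 to 6.51 and 5.3 to 6.52). The part of cell makeup in the breed differences below was not tested; in whole tissue, fewer cells of a type and less RNA per cell cannot be told apart. All Holstein-Friesian samples had the first and all Limousin samples the second position index on 1 slide, read in 1 scan, so the position on the slide and the breed cannot be told apart.

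Most of the late-numbered miRNAs were not detected in this tissue. Detection required that more than 50% of the spots of at least 1 probe of a miRNA passed Agilent's own call of being well above background. Of the 72, 18 (25.0%) were detected on all 8 arrays, 8 (11.1%) on some and 46 (63.9%) on none. Over the other 691 miRNAs the shares were 31.0%, 8.68% and 60.3%. Set beside the other bands of numbers, the share on all arrays lay below the 47.1% of the 346 miRNAs numbered under 1200, close to the 26.7% of the 45 from 1200 to below 2000, and above the 12.8% of the 242 from 2000 to below 2500 outside the repeat family. That family, miR-2284 and miR-2285, had 0 of 49 on all arrays, and let-7 had 8 of 9 (88.9%). These shares describe 8 arrays of 1 tissue, and miRNAs are not replicates, so no test was made.

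**Figure D1:**
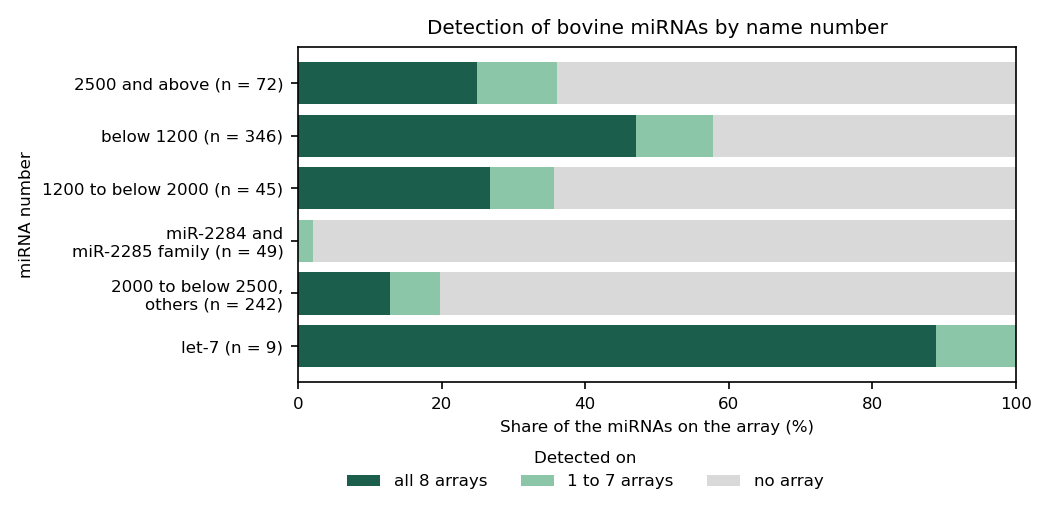
Stacked horizontal bars give, for each band of miRNA numbers (vertical axis, with the number of miRNAs), the share in percent detected on all 8 arrays, on 1 to 7 and on none (horizontal axis). In the band of 2500 and above, 25.0% were on all arrays and 63.9% on none, against 47.1% and 42.2% below 1200.

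The number of members detected overlapped between the breeds. The 4 Holstein-Friesian arrays detected 22, 19, 24 and 22 of the 72 members, and the 4 Limousin arrays 21, 26, 22 and 24. In percent, that is 26.4 to 33.3 and 29.2 to 36.1, overlapping ranges. For the other miRNAs the shares were 32.4% to 35.2% and 36.2% to 39.2%, which do not overlap. No member was detected on all arrays of 1 breed and on none of the other. Detection itself rests on the rule: with Agilent's own flag per miRNA, 21 members were on all arrays and 39 on none, and where 1 spot above background was enough, 27 were on all and 3 on none.

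By stretches of the numbering, detection was most frequent from miR-2881 to miR-2904. This run has 24 members, of which 10 (41.7%) were on all arrays and 11 on none; its probes had a median GC content of 75% and a median length of 12 bases. Among the 18 members from miR-2917 to miR-3957, 4 were on all arrays (miR-3141, miR-3154, miR-3431 and miR-3432) and 14 on none, at a median GC content of 50% and a median length of 15.5 bases. miR-4286 stands alone in its range and was on all arrays. Of the 9 arms from miR-6119 to miR-6123, miR-6119-5p and miR-6121-3p were on all arrays and the other 7 on none. The 20 members from miR-6517 to miR-6536 had 1 on all arrays (miR-6528), 5 on some and 14 on none.

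Probe composition went with detection among the members. The median GC content of the probe was 71.4% for members on all arrays, 56.2% for those on some and 51.7% for those on none, with median lengths of 14, 16 and 15.5 bases. Of the 31 members with a GC content of 60% or more, 13 (41.9%) were on all arrays, against 3 of 23 (13%) between 45% and 60% and 2 of 18 (11.1%) below 45%. In the other miRNAs the same classes gave 33.9% (57 of 168), 37.4% (91 of 243) and 23.6% (66 of 280).

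On the opposite strand of another miRNA, within 60 bases of it, lie 7 members. They are miR-2957 (opposite miR-152), miR-3120 (miR-214), miR-3578 (miR-382), miR-3596 (let-7b), miR-3600 (miR-22), miR-3601 (miR-542-5p) and miR-3604 (miR-199a and miR-199b). Of these 7, 0 were detected on any array, and each partner was detected on at least 5. Non-detection was common around them. Of the 18 members from miR-2917 to miR-3957, where all 7 lie, 14 were on no array, as were 63.9% of all 72. The probe pairs are shown for those with at least 11 complementary bases, with the complementary stretch in capitals, because they show what the array asks of each strand.
miR-3604: acAGTAGTCTGCACATTG
miR-199a-3p: taacCAATGTGCAGACTACT
miR-3596: tgaGGTAGTAGGTTGTGT
let-7b: aaccACACAACCTACTACC
miR-2957: tcagtgCATGACAGAAC
miR-152: cccaaGTTCTGTCATG
miR-3578: gaagtTGTTCGTGGTG
miR-382: cgaatcCACCACGAACA
miR-3600: aagctGCCAGTTGAAG
miR-22-3p: cagttCTTCAACTGGC
miR-3601: tcgggGATCATCATGT
miR-542-5p: ctcgtgACATGATGATC
The probe of miR-3604 and that of miR-199a-3p, a miRNA abundant in mesenchymal cells, are complementary over 16 bases. miR-199a-3p was detected on all 8 arrays and miR-3604 on none; the scaled signal of miR-3604 was at the floor of 0 on every array. For miR-3596 and let-7b, a founding family of developmental timing, the stretch is 15 bases, let-7b was on all 8 arrays, and the scaled log2 signal of miR-3596 reached at most 3.07, below the detection call. The other 4 printed pairs share 11 bases. Of their partners, miR-382 and miR-22-3p were on all 8 arrays, miR-542-5p on 2 Holstein-Friesian and 4 Limousin arrays, and miR-152 on 1 and 4. miR-3120 and miR-214 share 3 bases between their probes, and miR-214, which shares a precursor transcript with miR-199a, was on all arrays. In RefSeq the same entries overlap: MIR3120 with MIR214, MIR3578 with MIR382, MIR3596 with MIRLET7B, MIR3600 with MIR22 and MIR3601 with MIR542. MIR3604 has a copy over MIR199A-2 in DNM2 and one over MIR199B in DNM1, genes for dynamins, which cut vesicles from membranes.

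Arms and neighbours on the same strand also differed in detection. miR-6119-5p was on 8 arrays and miR-6119-3p, 40 bases away in RPL39 (a ribosomal protein gene), on 0. miR-6121-3p was on 8 and miR-6121-5p, 23 bases away in PLXNA2 (a semaphorin receptor gene), on 0. Both arms of miR-6120 and of miR-6122 were on 0. miR-3956 and miR-3957, in the imprinted miRNA cluster on chromosome 21, were on no array. Within 2 kb of them, miR-381, miR-487b, miR-409a, miR-369-3p, miR-369-5p and miR-410 were each on 8 arrays, miR-1185 was on 4, and miR-412, miR-541 and miR-656 were on 0. miR-6123 was on 0 and miR-296, 298 bases away, on 8. By contrast miR-3431 and miR-224, 1912 bases apart in GABRE, were both on 8, as were miR-3154 and miR-199b, 245 bases apart in DNM1, and miR-2887 and miR-2904, 106 bases apart.

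The remaining members on no array are named only. From the first run they are miR-2882, miR-2883, miR-2889, miR-2890, miR-2891, miR-2894, miR-2895, miR-2896, miR-2897, miR-2901 and miR-2903. Between miR-2917 and miR-3957 they are miR-2917, miR-3114_v15.0, miR-3602, miR-3613 and miR-3660. From the last run they are miR-6517, miR-6519, miR-6520, miR-6521, miR-6522, miR-6523, miR-6526, miR-6529, miR-6530, miR-6532, miR-6533, miR-6534, miR-6535 and miR-6536.

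Relative to the other miRNAs on the same arrays, the detected late-numbered miRNAs were mostly lower in Limousin than in Holstein-Friesian tissue. Of 21 that could be tested, 13 fell and 0 rose once arrays were scaled to a common 75th percentile (28.1% and 13.7% of all tested miRNAs), while without scaling 0 fell and 7 (33.3%) rose (0.741% and 64.1% of all). The 13 that fell differed by -1.10 to -0.53 on the log2 scale, or 1.44-fold to 2.15-fold, and include all 10 tested members of the run miR-2881 to miR-2904. The other 3 are miR-3141, miR-6525 and miR-6528. miR-4286, miR-3432 and miR-6119-5p had values above 0 and did not pass.

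The test was limma's moderated test on scaled log2 signals, fitted to the 270 miRNAs that had been detected on every array of one breed or both, with Benjamini-Hochberg adjustment over all 270 and a threshold of 0.05. In that fit 28.1% of all tested miRNAs were lower and 13.7% higher in Limousin, against 13 (61.9%) and 0 of the 21 members; at an unadjusted p under 0.05 the counts of members were 14 and 0. The median difference was -0.68 over the 21 members and -0.07 over all 270. The members were put forward with earlier results of these data known, so these counts describe them and test nothing about them as a set. Leaving out Holstein-Friesian replicate 4 or Limousin replicate 1 left 7 members lower (33.3%, against 17.8% and 17.4% of all tested miRNAs), and leaving out Limousin replicate 4 left 8 (38.1%, against 20.4%).

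The member with the largest difference was miR-3141. Its scaled log2 signals were 8.69, 7.71, 8.24 and 8.43 on the Holstein-Friesian arrays (replicates 1 to 4) and 7.02, 7.27, 7.09 and 7.28 on the Limousin arrays. Every Limousin array lay below every Holstein-Friesian array, and replicate 2 was the lowest of its breed. The means were 8.27 ± 0.41 and 7.17 ± 0.13 (SD, n = 4 each), a difference of -1.10 ± 0.19 (SE; limma adjusted p = 0.00302), which is 2.15-fold (95% confidence interval 1.60 to 2.88).

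In the first run, 7 members also had no overlap between the breeds. miR-2902 read 7.46, 6.38, 6.93 and 7.06 in Holstein-Friesian and 5.69, 6.01, 5.84 and 5.92 in Limousin, a difference of -1.09 ± 0.20 (SE, n = 4 each; limma adjusted p = 0.00363). miR-2884_v15.0, which has no RefSeq miRNA gene, read 11.57, 10.79, 11.01 and 11.34 against 10.27, 9.85, 10.40 and 10.39, a difference of -0.95 ± 0.19 (limma adjusted p = 0.0047). In both, replicate 1 was the highest and replicate 2 the lowest Holstein-Friesian array, and the Limousin values lay closer together. The signals of miR-2881 were 11.00, 9.93, 10.39 and 10.81 against 9.09, 9.88, 9.41 and 9.92, with a difference of -0.96 ± 0.26 (limma adjusted p = 0.0149). Here the lowest Holstein-Friesian array, replicate 2, sat just above the highest Limousin array.

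miR-2887 and miR-2904 lie next to each other. miR-2887 read 7.73, 7.52, 7.41 and 7.66 in Holstein-Friesian and 6.80, 6.79, 7.18 and 6.60 in Limousin, differing by -0.74 ± 0.14 (SE, n = 4 each; limma adjusted p = 0.00433). miR-2904 read 7.51, 7.47, 6.90 and 7.24 against 6.30, 6.34, 6.86 and 6.09, differing by -0.88 ± 0.19 (limma adjusted p = 0.00663). Limousin replicate 3 was the highest of its breed for both, and Holstein-Friesian replicate 3 the lowest of its own. miR-2892 read 11.02, 10.24, 9.94 and 10.34 against 9.61, 9.75, 9.91 and 9.54, a difference of -0.68 ± 0.21 (limma adjusted p = 0.0237), and the call was lost in 4 of the 8 fits that left out 1 array. miR-2898 read 7.36, 6.77, 7.01 and 7.14 against 6.39, 6.52, 6.66 and 6.38, a difference of -0.58 ± 0.14 (limma adjusted p = 0.0102). Without scaling, miR-2887, miR-2892 and miR-2898 turned to 0.12, 0.17 and 0.27, values that did not pass.

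The 5 other members that passed had overlapping breeds, with Holstein-Friesian replicate 2 among the Limousin arrays in each. For miR-2893 the arrays read 11.91, 10.22, 11.28 and 11.63 in Holstein-Friesian and 9.95, 10.59, 10.00 and 10.56 in Limousin, a difference of -0.98 ± 0.33 (SE, n = 4 each; limma adjusted p = 0.0345). For miR-2885, in SYT7, they read 7.47, 6.18, 6.87 and 7.06 against 5.73, 6.16, 6.12 and 6.19, a difference of -0.85 ± 0.24 (limma adjusted p = 0.0194). For miR-2888 they read 10.38, 9.49, 9.98 and 10.68 against 9.03, 9.61, 9.29 and 9.72, a difference of -0.72 ± 0.25 (limma adjusted p = 0.0402). The calls of miR-2893 and miR-2888 were lost in 6 and 7 of the 8 fits without 1 array, and that of miR-2885 in 2.

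miR-6525 and miR-6528 were the members of the last run that passed. miR-6525, in FASTK, read 5.54, 4.37, 5.08 and 5.27 in Holstein-Friesian, where 3 of 4 arrays detected it, and 4.08, 4.54, 4.18 and 4.29 in Limousin, where all 4 did. Its difference was -0.79 ± 0.23 (SE, n = 4 each; limma adjusted p = 0.0195), lost in 3 fits without 1 array. miR-6528, which lies 1285 bases from miR-129, read 9.61, 8.86, 9.32 and 9.46 against 8.48, 8.96, 8.83 and 8.86, a difference of -0.53 ± 0.18 (limma adjusted p = 0.0345), lost in 6 and, with the replicate number as a block, lost as well (limma adjusted p = 0.0731). miR-129 itself was on no array. Without scaling, miR-2885, miR-2888, miR-6525 and miR-6528 lay at 0.007, 0.13, 0.06 and 0.33 and did not pass.

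**Figure D2:**
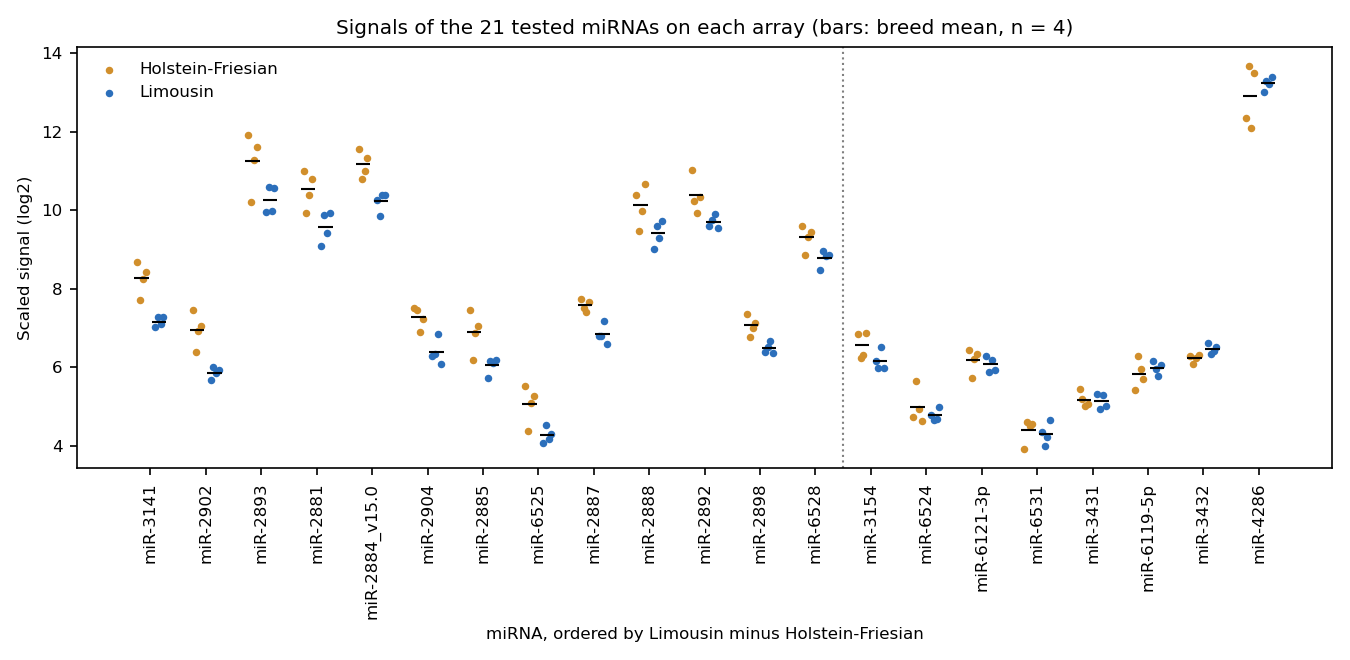
Each point is the scaled log2 signal (vertical axis) of a tested member on 1 array, Holstein-Friesian in orange and Limousin in blue, with a bar at the breed mean (n = 4); members run along the horizontal axis by their difference. The 13 left of the dotted line passed the limma threshold with Limousin lower on this scale, a direction that 7 of them did not keep without scaling, and levels of different miRNAs are not comparable.

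Over the whole tested set, 8 of the 13 members that fell had no overlap between the breeds. Among all 270 tested miRNAs, 20.7% did not overlap with Limousin lower and 15.9% with Limousin higher; of the 21 members, these were 8 and 1, miR-3432. For 13 of the 21 members at least 2 probes were detected on all arrays. In all 13 these probes gave differences of the same sign, a median of 0.105 and at most 0.37 apart on the log2 scale. Such probes begin at the same base and were read on the same arrays, so they are not independent measurements. The other 8 had no second probe detected on all arrays.

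The 8 tested members that did not pass include the brightest one. miR-4286, known also in humans, read 12.37, 13.68, 12.10 and 13.49 in Holstein-Friesian and 13.01, 13.31, 13.23 and 13.41 in Limousin, a difference of 0.33 with a 95% confidence interval from -0.39 to 1.05 (limma adjusted p = 0.450). Its Holstein-Friesian arrays fell into a high pair (replicates 2 and 4) and a low pair (1 and 3), with an SD of 0.79, and all 4 Limousin arrays lay between them. Replicate 2 was its highest Holstein-Friesian array, as it was for miR-6119-5p, miR-6524 and miR-6531. miR-3432, whose RefSeq copies lie in HIP1 and TP53BP1, read 6.28, 6.09, 6.25 and 6.31 against 6.63, 6.33, 6.42 and 6.52. The Limousin arrays were all above the Holstein-Friesian ones, yet the difference of 0.24 did not pass after adjustment (95% confidence interval -0.01 to 0.49; limma adjusted p = 0.108).

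miR-3431, in GABRE, had the smallest difference with the background subtracted by Agilent's software. Its arrays ran from 5.01 to 5.44 in Holstein-Friesian and from 4.93 to 5.32 in Limousin, a difference of -0.04 (95% confidence interval -0.35 to 0.28; limma adjusted p = 0.864). The intervals of miR-6121-3p (-0.10, from -0.48 to 0.28), miR-6119-5p (0.15, from -0.26 to 0.55) and miR-6531 (-0.08, from -0.50 to 0.33) also spanned 0. miR-6531, in the histone gene H2AC6, was detected on 1 Holstein-Friesian and 4 Limousin arrays, and miR-6524, in PDCD4 (a gene for an inhibitor of translation initiation), on 2 and 4. miR-6524 differed by -0.21 (95% confidence interval -0.68 to 0.26). miR-3154, in DNM1, lay closest to the threshold among these, at -0.42 (95% confidence interval -0.83 to -0.01; limma adjusted p = 0.0920). The breeds overlapped in 7 of these 8, all but miR-3432. With normexp background correction 6 of the 8 passed limma's threshold as lower in Limousin, as did 54.1% of all tested miRNAs: miR-3154 (-0.56), miR-3431 (-0.50), miR-6121-3p (-0.42), miR-6524 (-0.59), miR-6531 (-0.60) and miR-6119-5p (-0.32). Without background correction the first 5 lay at -0.55, -0.48, -0.39, -0.58 and -0.59 and passed too, with 53.0% of all tested miRNAs lower.

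A further 5 members were detected on some arrays and not tested. miR-2899 was on 3 Holstein-Friesian arrays and 1 Limousin array, and its signals of 4.09 to 5.70 and 3.43 to 3.84 did not overlap. miR-2900, in the imprinted gene PEG3, was on 3 and 3, and miR-6527, in the gene of the homeobox protein ADNP, on 3 and 2. Their signals overlapped, at 4.29 to 5.51 against 3.94 to 4.43 for miR-2900 and 3.98 to 5.17 against 3.70 to 4.18 for miR-6527. miR-2886, in HOXB3, and miR-6518, in ADM (the gene of the vasodilator adrenomedullin), were on no Holstein-Friesian array and on 2 and 1 Limousin arrays; their signals of 3.99 to 4.67 against 3.6 to 4.26 and of 2.66 to 4.33 against 3.01 to 3.72 overlapped. The lowest signal that counted as detected was 4.33 to 4.91 on Holstein-Friesian and 3.39 to 4.08 on Limousin arrays, so a Limousin array could detect a dimmer scaled signal.

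The breed difference of a member went with the composition of its probe. Of the 13 tested members with a GC content of 60% or more, 11 (84.6%) fell, with a median difference of -0.74; of 4 between 45% and 60%, 2 fell (median -0.45); of 4 below 45%, 0 fell (median 0.03). The other miRNAs showed the same order: 42 of 68 (61.8%) fell at 60% or more (median -0.63), 15 of 101 between 45% and 60% (-0.01), and 6 of 80 below 45% (0.19). Across the 21 members Spearman's rho of the difference was -0.645 with GC content and 0.644 with probe length, and across the 249 other tested miRNAs -0.625 and 0.637. These correlations describe miRNAs measured on the same 8 arrays, which are not independent replicates, and GC content and length were themselves tied, with a rho of -0.98 in the members. Of the other bands of numbers, those from 1200 to below 2000 and from 2000 to below 2500 (outside the repeat family), with median GC contents of 57.1% and 53.3%, had 9 of 15 and 23 of 36 miRNAs lower and 0 higher, with medians of -0.64 and -0.70. Below 1200, 30 of 188 were lower and 35 higher, with a median of 0.05.

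**Figure D3:**
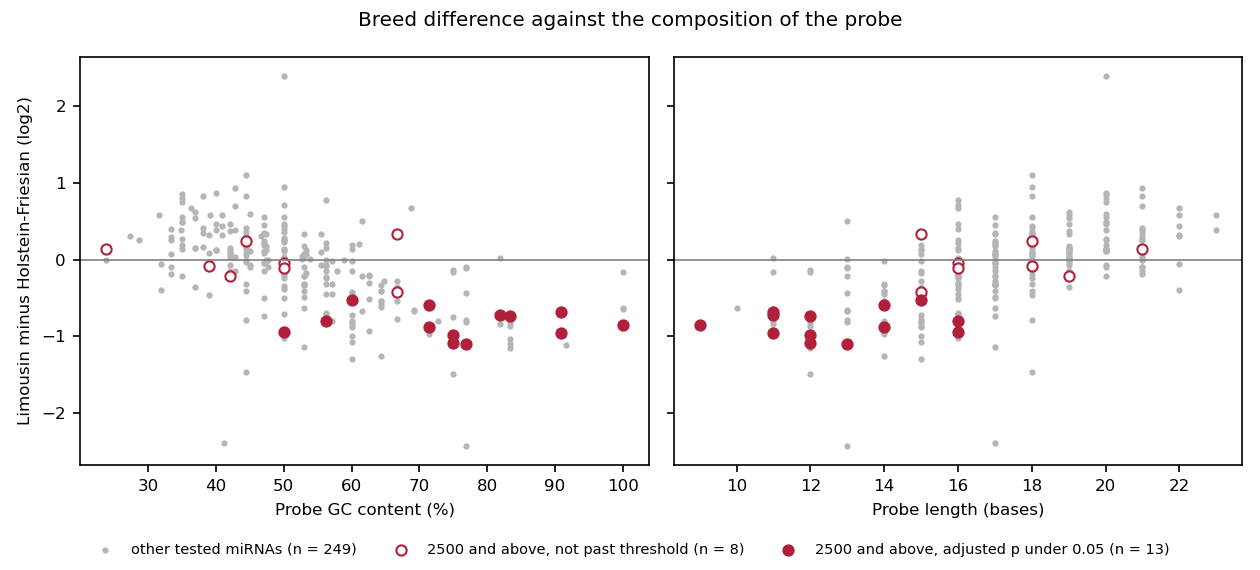
Breed difference of the scaled signal (vertical axis, log2, Limousin minus Holstein-Friesian) against the GC content in percent (left) and the length in bases (right) of the probe; grey points are the 249 other tested miRNAs, red ones the 21 members, filled where they passed the limma threshold. The filled points lie at 50% to 100% GC and at 9 to 16 bases, all below 0 on this scaled signal; 7 of the 13 lie above 0 without scaling.

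When each array was corrected for probe GC content and length, 6 members were lower in Limousin and 0 higher, against 19.3% and 9.63% of all tested miRNAs, and the members' median moved from -0.68 to -0.23, beside -0.14 over all. The correction kept 5 of the 13: miR-2884_v15.0 (-0.88, 95% confidence interval -1.30 to -0.46; limma adjusted p = 0.00947), miR-2902 (-0.52), miR-3141 (-0.63), miR-2904 (-0.53) and miR-6525 (-0.70), the last 4 with limma adjusted p of 0.0136, 0.00673, 0.0461 and 0.0311. With the replicate block added, miR-2904 and miR-6525 no longer passed (limma adjusted p = 0.0738 and 0.0572). The correction moves a miRNA by an amount set by the GC content and length of its probe alone. By construction, then, miR-2884_v15.0 and miR-6525, with 50% and 56.2% GC, moved least of the 13. The sixth is miR-6119-5p, at 23.8% GC the most AT-rich tested member, whose difference turned from 0.15 to -0.39 (limma adjusted p = 0.00992). Its shift too is set by its probe. The slopes were fitted to these same arrays, and the test treats them as known. miR-2885 and miR-2892 turned to 0.12 and 0.05, neither past the threshold.

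Scaling set the sign for many members. On unscaled signals 173 (64.1%) of all tested miRNAs were higher and 0.741% lower in Limousin, and the median of all moved from -0.07 to 0.78; the members' median moved to 0.17. Scaling moves every miRNA of an array alike, so the distance of the members' median from that of all, -0.61, is the same on both by construction. Without scaling, the 13 members ran from -0.25 (miR-3141) to 0.33 (miR-6528), 6 below 0 and 7 above; limma called 0 of them, and 0 members were lower at an unadjusted p under 0.05 either. The 7 that passed as higher were then miR-4286 (1.19), miR-3432 (1.098), miR-6119-5p (1.00), miR-3431 (0.82), miR-6531 (0.77), miR-6121-3p (0.75) and miR-6524 (0.64), all members that did not pass on scaled signals. Scaled to the 75th percentile of all probes, 6 members (28.6%) were lower and 1 (4.76%), miR-3432, higher, against 11.1% and 38.5% of all tested miRNAs. In the authors' deposited value table, where 10.4% of all tested miRNAs were lower and 30% higher by the same limma fit, 4 members were lower (miR-2884_v15.0, miR-2887, miR-2902 and miR-3141) and miR-3432 was higher.

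**Figure D4:**
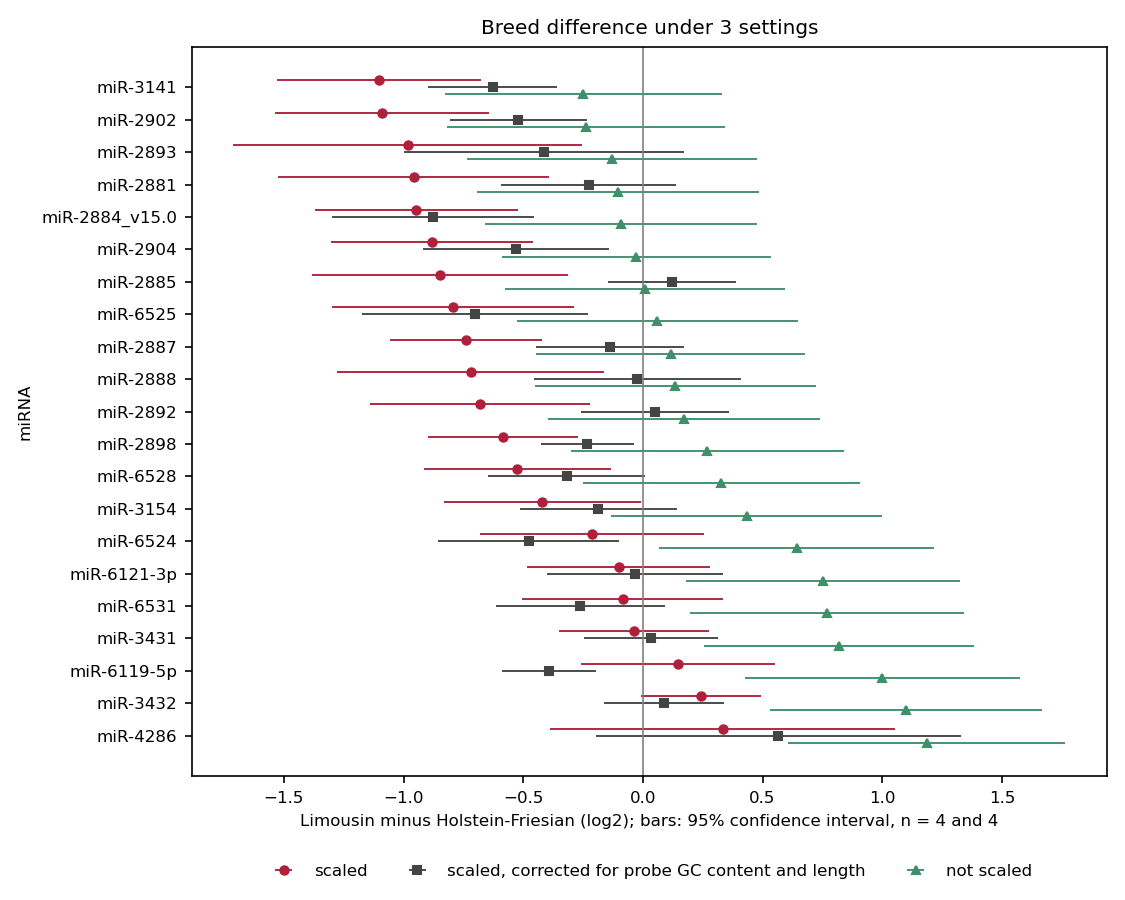
Breed difference of each of the 21 tested members (horizontal axis, log2, Limousin minus Holstein-Friesian; points with 95% confidence intervals, n = 4 and 4) on scaled signals (red), after correction for probe GC content and length (grey) and without scaling (green). All 13 intervals of the members that passed lie below 0 on scaled signals and all 13 cross 0 without scaling.

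Most tested members had a larger SD among the Holstein-Friesian than among the Limousin animals. The median SD over the 21 tested members was 0.37 in Holstein-Friesian and 0.20 in Limousin, and the Holstein-Friesian SD was the larger in 17 of 21 (81.0%). The other tested miRNAs had medians of 0.25 and 0.14 and the same order in 181 of 249 (72.7%). Those with a GC content of 60% or more lay nearer to the members, with medians of 0.33 and 0.19 and the same order in 50 of 68 (73.5%); the difference between these sets was not tested. Holstein-Friesian replicate 2 was the lowest array of its breed for 13 of 21 members (61.9%), for 37.3% of the other miRNAs and for 55.9% of the others with a GC content of 60% or more. Its median distance from the other 3 Holstein-Friesian arrays was -0.44 over the members, -0.31 over the others with a GC content of 60% or more and -0.02 over all others. Among the 13 that fell, replicate 2 was the lowest for 10 and replicate 1 the highest for 12. Without replicate 2, 14 members (66.7%) were lower in Limousin and 0 higher, against 31.9% and 20.7% of all tested miRNAs.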

How the data were processed

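Small RNA of 8 mammary samples was measured on one-colour Agilent arrays, and breed and replicate number come from the titles. Per the file headers, intensity was written by Agilent Feature Extraction 10.10.1.1 with its own background subtraction, with no scaling between arrays, and probe positions refer to UMD 3.1. The deposited value table holds log2 values; the scale was read from the values, which match the log2 total signal that Agilent gives a miRNA, less a constant per array (largest deviation 9.74e-06), with column medians of -9.79 to -8.53. Rows were not centred, and direction follows from single-sample columns.

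Here control and outlier spots were dropped, the 15 to 30 spots of a probe averaged, each array divided by the 75th percentile of the 429 probes that every array detected and returned to the mean of these percentiles, signals below 1 set to 1, and log2 taken; the brightest probe stands for a miRNA. Breeds were compared with limma 3.58.1 in R 4.3.3, breed being the only term. Only the limma fit was tried on simulated data, with independent noise for each miRNA and array. Scaling, detection, probe choice and the composition correction were not simulated. The number of arrays limits the precision. The members and all lists (bands, markers) were chosen with earlier results of these data known. Named with values are all members detected on at least 1 array; sequences were printed for members past the threshold, the smallest difference and the brightest member, and the opposite-strand pairs were added after their values were seen. The deviations of same-numbered samples from their breed means correlated at -0.31, -0.25, -0.45 and 0.32, above 0 for replicate 4 only. They were not taken as pairs in the main fit, although the number is also the second position index on the slide. Alternatives covered scaling, background, probe summary, filter, floor, deposited table, probe composition, replicate block and each array left out.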

Additional observations from a re-analysis of the deposited data

Results flagged for a closer look

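Within each breed, the array farthest from the others was compared with Dixon's 95% critical value for 4 samples for the 21 tested members, 42 groups in all, of which 2 exceeded it; chance alone gives about 1 in 20. For miR-2885, Limousin replicate 1 was low at a scaled log2 signal of 5.73, with the other 3 arrays between 6.12 and 6.19 (ratio 0.84). For miR-6531, Holstein-Friesian replicate 1 was low at 3.92, with the others between 4.50 and 4.61 (ratio 0.846); it was detected on 1 of these 4 arrays.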

How the results depend on the processing

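The count of members lower in Limousin (13) became 6 with the 75th percentile over all probes (28.6%, against 11.1% of all tested miRNAs). It became 7 with quantile normalization (33.3%, against 15.9%) and 0 without scaling. Without the detection filter it was 8 of 72 members (11.1%, against 7.99% of all 763 miRNAs). The deposited value table gave 4 (19.0%, against 10.4%). Correcting arrays for GC content and length of the probes gave 6 (28.6%, against 19.3%). That correction plus the replicate block gave 4 (19.0%, against 15.2%), and miR-2904 and miR-6525 were lost. The count of members higher (0) became 1, 1, 7, 1 and 1 under the first 5 of these settings. Of all tested miRNAs, 38.5%, 20.4%, 64.1%, 3.93% and 30.0% were higher under them. The median difference (-0.68) became -0.35 with the 75th percentile over all probes and 0.17 without scaling. Without the filter it was -0.27, over all 72 members. It was -0.37 in the deposited table and -0.23 with the composition correction, with or without the block. Over the fits that left out 1 array, 7 to 14 members were lower, 0 to 0 higher, and the median ran from -0.77 to -0.49. Where 1 spot well above background sufficed, 3 members were on no array. The replicate block alone gave 12 members lower and 0 higher (59 and 25 of all tested miRNAs), the member lost being miR-6528, and only replicate 4 correlated best with its own number. The other counts lay within 1.5 times of these. Median scaling gave 11 lower (52.4%, against 21.9% of all tested miRNAs), normexp 19 (90.5%, against 54.1%) and no background correction 18 (85.7%, against 53.0%). With normexp and without background correction, the members' median lay -0.25 and -0.29 from that of all, beside -0.61 in the main setting. The mean of probes, the longest probe and the other floor each gave 13 (61.9%, against 27.0%, 27.4% and 29.6%). On miRNAs detected on all 8 arrays, 12 members were lower (66.7%, against 28.0%). Over all tested miRNAs, 76 lower and 37 higher became 30 and 104 with the 75th percentile over all probes and 146 and 26 with normexp. The causes were not tested.

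For the 13 members that passed, 194 differences under settings other than leaving out an array kept direction and threshold in 131 cases, lost the threshold in 52 and turned in 11; of 104 with an array left out, 76 held, 28 lost the threshold and 0 turned. The detection filters and the replicate block alone leave a difference unchanged by construction. Under those settings only the threshold could be lost, and the direction could not turn. Turned without scaling: miR-2885 (0.00715), miR-2887 (0.12), miR-2888 (0.13), miR-2892 (0.17), miR-2898 (0.27), miR-6525 (0.0607), miR-6528 (0.33), and of those that had not passed miR-3154 (0.43), miR-3431 (0.82), miR-6121-3p (0.75), miR-6524 (0.64) and miR-6531 (0.77). With the composition correction, with or without the replicate block, miR-2885 (0.12), miR-2892 (0.0495), miR-3431 (0.0331) and miR-6119-5p (-0.39) turned. With the 75th percentile over all probes, miR-3431 (0.29), miR-6121-3p (0.23), miR-6524 (0.12) and miR-6531 (0.24) turned. With quantile normalization they stood at 0.26, 0.12, 0.10 and 0.27, and in the deposited table at 0.40, 0.16, 0.33 and 1.89. There, the lowest value of an array is also its median, so undetected miRNAs share 1 value per array. miR-6524 and miR-6531 were detected on 2 and 1 Holstein-Friesian arrays. How far that shared value enters their deposited differences (limma adjusted p = 0.459 and 0.346) was not tested. miR-3431 also turned with median scaling (0.0461) and the mean of probes (0.0432). With normexp and without background correction miR-3432 (-0.19 and -0.14) and miR-6119-5p (-0.32 and -0.28) turned. With 1 array left out, miR-3431 ran from -0.0932 to 0.0507 and was above 0 without Holstein-Friesian replicate 1 or Limousin replicate 2 or 4. miR-6524 ran from -0.33 to 0.0117, above 0 without Holstein-Friesian replicate 2, and miR-6531 from -0.24 to 0.0213, above 0 without Limousin replicate 2. The lowest detected signal of each array bounds what could be seen of the 46 undetected members.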
